A study of Mus musculus with 9 samples.

Results

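The proteasome genes described here are the 46 genes, of 16299 measured with a single platform symbol, whose symbol starts with Psma, Psmb, Psmc, Psmd, Psme, Psmf or Psmg. Their 530 probe sets with exactly 1 symbol were summarised to a log2 intensity per gene and array. Of the 46 genes, 42 passed the filter of at least 3 probe sets and a mean log2 intensity above 5.09, and were tested among 11342 genes. Psmb11 and Psme2 had 2 such probe sets each, and Psmg3 and Psmc3ip lay under the intensity filter. Psmc3ip carries the prefix only: it encodes a meiotic recombination factor and no proteasome subunit. Psmd1, Psma8 and Psmg4 had no probe set with a single symbol and were not analysed here.

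The tissue was perigonadal white adipose tissue, the fat depot beside the gonads, taken from mice 4 months old and measured on exon arrays. The groups, of 3 arrays each, carried G609G on both copies of Lmna, carried LCS on both copies, or were wild type (WT). Lamin A and lamin C of the nuclear envelope both come from Lmna. The G609G change is known to lead to progerin, a truncated lamin A, and LCS is known to leave lamin C as the product of the gene. The design text calls the replicates biological, but nothing says that they came from separate animals, so p-values measure the spread between these arrays, which may be technical.

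The proteasome degrades proteins tagged with ubiquitin. Its 20S core is a barrel of alpha rings, which gate the entry, and beta rings, in which the subunits beta1, beta2 and beta5 carry the active sites. A 19S cap with ATPase and non-ATPase subunits recognises and unfolds the substrates. Under interferon and in immune cells Psmb9, Psmb10 and Psmb8 take the places of Psmb6, Psmb7 and Psmb5, which makes the immunoproteasome and favours peptides for class I antigen presentation.

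The deposited values sat lower on the G609G arrays. Their median deviation from the gene means lay between -0.35 and -0.28, against 0.15 to 0.20 on LCS arrays and 0.11 to 0.20 on WT arrays. Each array was therefore centred on its median deviation, and values are given relative to the median gene. As deposited, the median log2 fold of all 11342 genes in G609G minus WT was -0.47, against -0.01 after centring, so each G609G minus WT fold below is about 0.46 lower on the deposited scale. In G609G minus LCS the median was -0.48 as deposited, against 0.02 after centring. Whether this offset belongs to the tissue or to the normalization cannot be told apart. Lmna itself lay between 7.49 and 7.66 in G609G, between 7.59 and 7.88 in LCS and between 7.64 and 7.79 in WT, and its gene level does not check these alleles.

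Skeletal muscle genes were far higher in the G609G samples, and these values stand beside every G609G result below. All 14 muscle markers were called higher in G609G, and their summed log2 level was 16.06 to 16.12 in G609G and 11.20 to 11.22 in LCS, against 10.25 to 10.28 in WT. On all LCS arrays and on all WT arrays 8 of these 14 genes lay under the intensity filter. Over all genes tested, 34% were called higher and 36.7% lower in G609G, and 22.3% and 17.7% in LCS. Macrophage markers moved with genotype too, with 6 of 9 called lower in G609G and 6 of 9 called higher in LCS. Endothelial markers were called higher for 7 of 8 genes in G609G, with a median log2 fold of 0.55, and for 6 of 8 in LCS, with 0.23; as deposited 4 were called higher and 3 lower in G609G. Epididymis and testis markers, from the tissue next to this depot, were called lower for 12 of 15 genes and higher for 2 in G609G. In LCS 10 of the 15 were called lower and 3 higher. The mutants also differed from each other, with 10 called higher and 5 lower in G609G against LCS. Adipocyte markers summed to 16.09 to 16.14 in G609G and 16.14 to 16.17 in LCS, against 16.02 to 16.12 in WT. By gene, 4 of 11 adipocyte markers were called higher and 5 lower in G609G. Lep (leptin) lay at -5.41, Lipe at -0.54 and Cebpa at -0.73. Cfd went the other way, with 13.48, 13.51 and 13.42 in G609G, against 13.02, 13.01 and 12.90 in WT. As deposited 0 of the 11 were called higher and 10 lower by limma. In LCS 3 were called higher, with Lep at 1.11, and 1 lower. The part of these markers in the proteasome results was not tested, and in bulk tissue fewer cells of a type and less RNA per cell cannot be told apart.

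**Figure D1:**
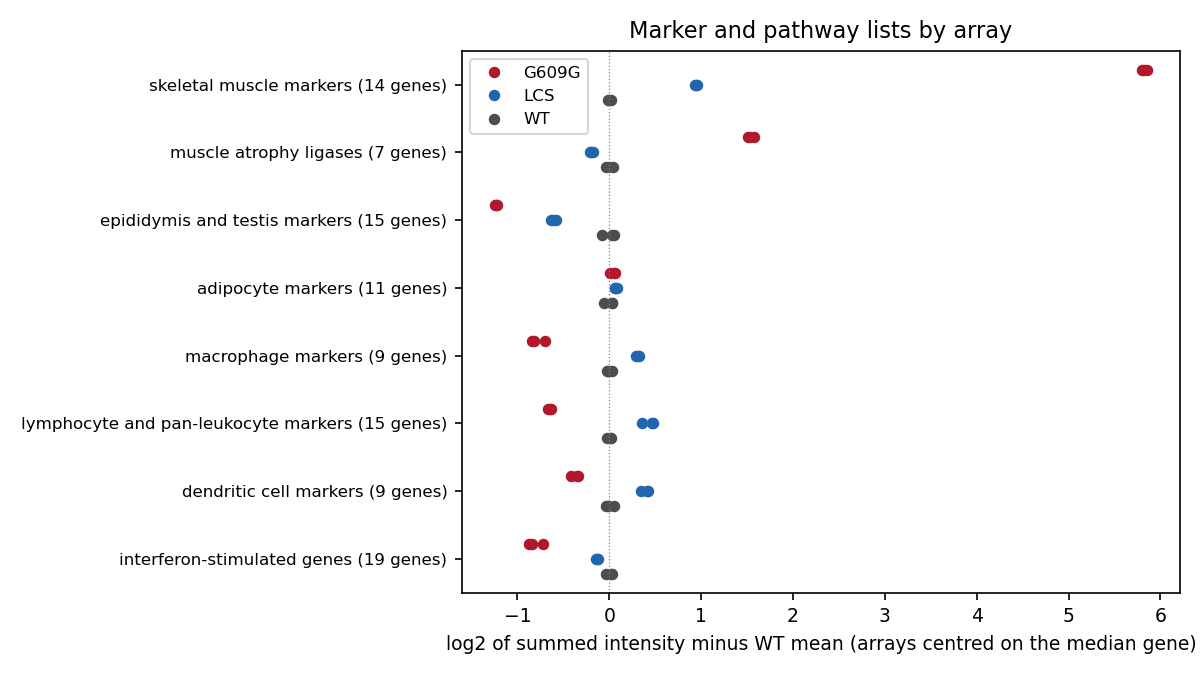
Log2 of the summed intensity of each marker or pathway list on each array (points; 3 arrays per genotype), relative to the WT mean of the list and with arrays centred on the median gene. The G609G arrays stand at the right for muscle markers and at the left for macrophage, lymphocyte, dendritic and interferon lists, while LCS lies to the right of WT for the macrophage, lymphocyte and dendritic lists.

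In G609G the constitutive proteasome was higher relative to the median gene and the immune catalytic subunits were lower. Of the 42 members tested, 28 were called higher and 9 lower in G609G against WT (limma, Benjamini-Hochberg adjusted p under 0.05). Over all genes tested 34% were called higher and 36.7% lower, and 34.7% and 36.9% were higher or lower with no overlap between the arrays of the groups. The median log2 fold of the members was 0.25, against -0.01 for all genes. As deposited, 3 members (Psma3, Psma6 and Psmd9) were called higher and 25 lower, beside 8.26% and 71.3% of all genes. The counts of members called higher or lower therefore depend on the scaling, while differences between members within an array do not depend on the centring.

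**Figure D2:**
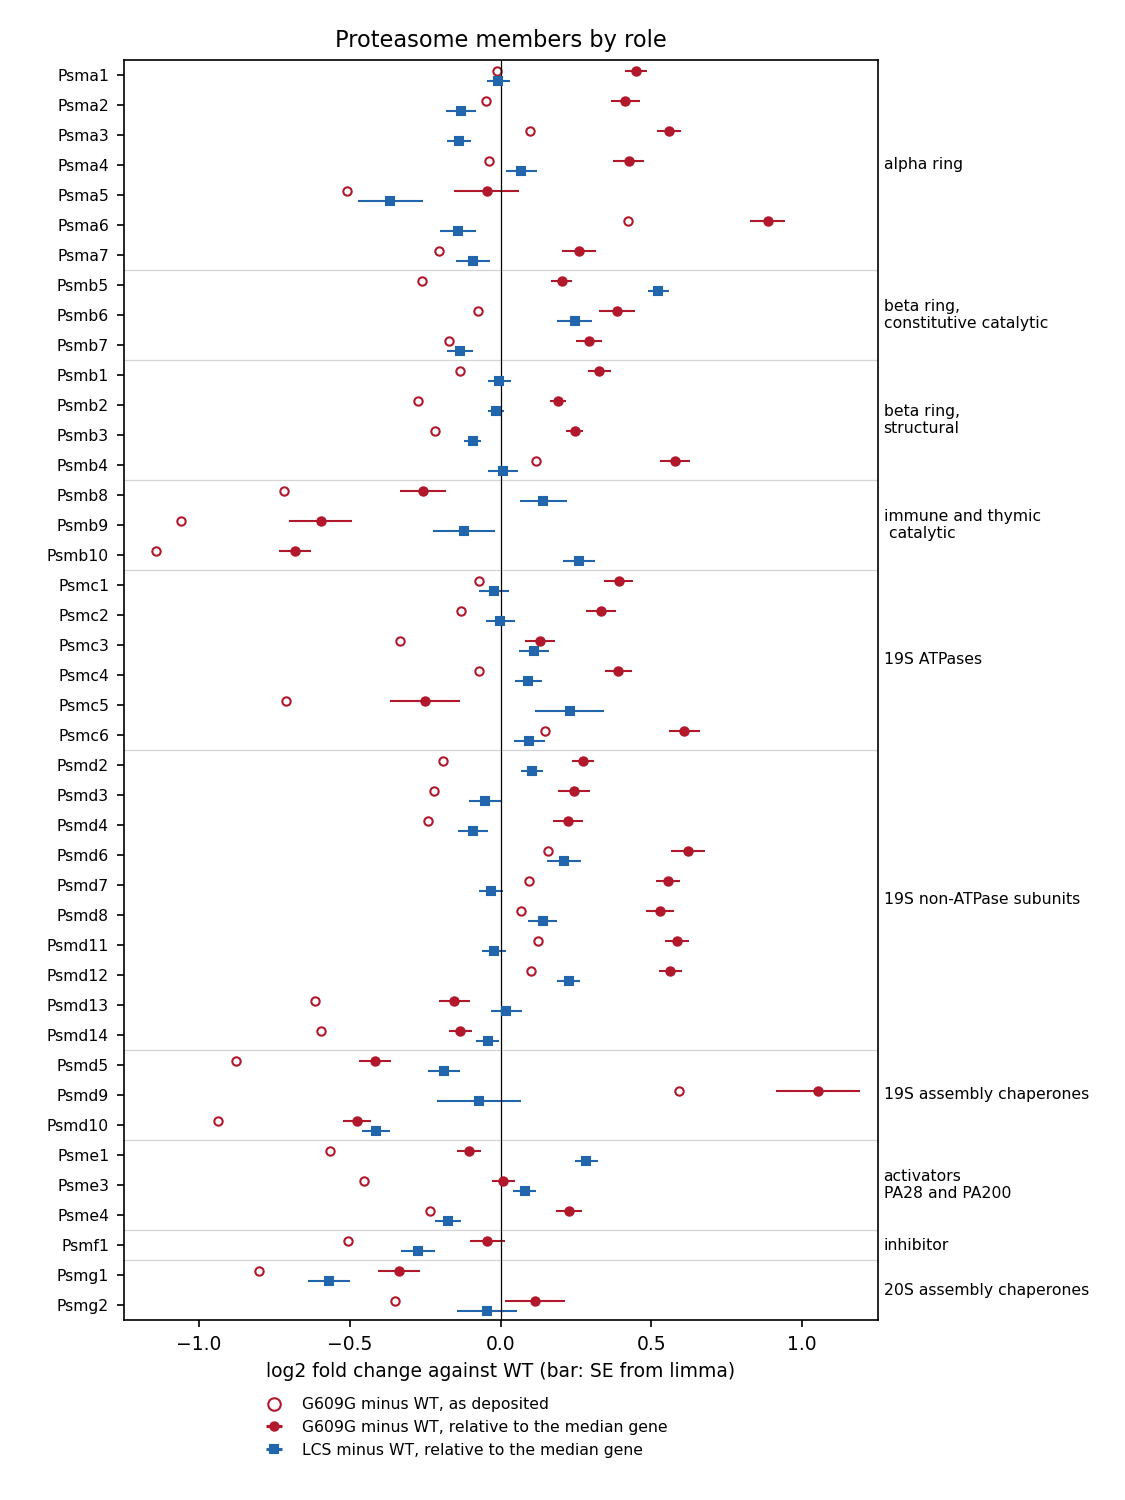
Log2 fold change against WT of the 42 tested members, grouped by role, for G609G relative to the median gene (filled circles, SE from limma), G609G as deposited (open circles) and LCS relative to the median gene (squares, SE from limma). Psmb8, Psmb9 and Psmb10 lie left of 0 in G609G on both scales, and Psma6 and Psmd9 lie right of 0 on both.

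The alpha ring genes were called higher in G609G for 6 of 7 members, with a median log2 fold of 0.43. Psma6 measured 10.56, 10.49 and 10.65 in G609G, against 9.63, 9.76 and 9.65 in WT. Every G609G array lay above every WT array, and the log2 fold of 0.89 ± 0.06 (SE) had an adjusted p of 5.8e-08 by limma. Psma3 measured 10.69, 10.72 and 10.63 in G609G, against 10.19, 10.13 and 10.05 in WT, a log2 fold of 0.56 without overlap. Psma1, Psma2 and Psma4 had log2 folds of 0.45, 0.41 and 0.43, and Psma7 had 0.26. Psma5 was not called, at -0.05 (adjusted p = 0.712 by limma). It rests on 4 probe sets of its own, since 16 others are shared with a predicted gene, and with those joined its log2 fold was 0.03.

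The structural beta genes were all called higher in G609G, with log2 folds of 0.58 for Psmb4, 0.33 for Psmb1, 0.25 for Psmb3 and 0.19 for Psmb2. Of the 6 ATPases of the 19S cap, 5 were called higher, led by Psmc6 at 0.61. Psmc3, at 0.13, was not called with the replicate number as a block on the G609G and WT arrays alone (adjusted p = 0.0827 by limma). Psmc5 was not called at -0.25 (adjusted p = 0.071 by limma). Psmc5 was also the most variable ATPase in G609G, with 6.39, 6.55 and 6.88, against 6.87, 6.87 and 6.83 in WT.

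Of the 10 non-ATPase subunits of the cap, 8 were called higher in G609G and 2 lower. Psmd11, a scaffold subunit, measured 9.83, 9.75 and 9.87 in G609G, against 9.26, 9.22 and 9.21 in WT. Psmd12, another scaffold subunit, measured 9.28, 9.33 and 9.35 in G609G, against 8.77, 8.76 and 8.74 in WT. Neither overlapped between the groups, with log2 folds of 0.59 and 0.56. Psmd6, Psmd7 and Psmd8 had 0.62, 0.56 and 0.53. The members called lower were Psmd14, the deubiquitinase of the lid, at -0.13, and Psmd13 at -0.15. With array medians set equal these were 0.02 and 0.0010. Psmd13 was not called with the replicate number as a block on the G609G and WT arrays alone (adjusted p = 0.0542 by limma).

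Of the 5 assembly factors tested, 1 was called higher and 3 lower in G609G. Psmd9, a chaperone of the ATPase ring, measured 7.45, 8.14 and 7.98 in G609G, against 6.72, 6.89 and 6.80 in WT. Its log2 fold of 1.05 ± 0.14 was the highest of the 42 members, and its G609G arrays were also the most spread. Its probe sets differed: 4508032 measured 9.03 ± 0.20 in G609G, against 7.12 ± 0.30 in WT. Probe set 4360259 measured 6.28 ± 0.49 in G609G, against 6.10 ± 0.26 in WT (SD, n = 3 arrays each). Both probe set tests described below called each of them, in opposite directions relative to the gene. Psmd10 (gankyrin) and Psmd5, the other chaperones of the ATPase ring, were called lower at -0.48 and -0.42. Psmg1, a chaperone of the alpha ring, measured 8.15, 8.19 and 8.40 in G609G, against 8.66, 8.50 and 8.59 in WT, and was called lower at -0.34. Psmg2, its partner, was not called at 0.11 (adjusted p = 0.328 by limma).

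All 3 immune catalytic subunits that were tested were called lower in G609G. Psmb10 measured 7.44, 7.45 and 7.45 in G609G, against 8.15, 8.05 and 8.18 in WT. Psmb9 measured 6.80, 7.18 and 6.80 in G609G, against 7.46, 7.46 and 7.65 in WT. Psmb8 measured 6.80, 6.92 and 7.00 in G609G, against 7.20, 7.08 and 7.20 in WT. No G609G array reached a WT array for any of the 3 genes. The log2 folds were -0.68 ± 0.05 for Psmb10, -0.60 ± 0.10 for Psmb9 and -0.26 ± 0.08 for Psmb8, with adjusted p of 2.5e-07, 0.000266 and 0.0106 by limma. The call of Psmb8 ended under 3 alternatives, at -0.10 with array medians set equal, -0.11 with quantile normalization and -0.17 with the median of the probe sets (adjusted p = 0.22, 0.224 and 0.343 by limma). The lower Psmb9 level was not shared by all 7 of its probe sets. Probe set 5123811 measured 7.82 ± 0.37 in G609G, against 7.64 ± 0.22 in WT (SD, n = 3 arrays each). Both probe set tests described below called it, with 0.77 for the probe set minus its gene (adjusted p = 0.0394 by limma on the splicing index). Probe sets 4547919 and 5558936 were not lower either, with 8.51 ± 0.44 and 7.53 ± 0.60 in G609G, against 8.50 ± 0.12 and 7.27 ± 0.22 in WT. Neither was called by both tests in G609G minus WT. Psmb11, the thymic subunit, was low on all arrays, with 5.06, 4.27 and 4.60 in G609G, 4.19, 4.08 and 4.24 in LCS, and 4.40, 4.16 and 4.00 in WT.

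The constitutive catalytic subunits were called higher in G609G. Psmb6 measured 9.53, 9.59 and 9.63 in G609G, against 9.18, 9.21 and 9.20 in WT. Psmb7 measured 9.66, 9.69 and 9.72 in G609G, against 9.45, 9.43 and 9.31 in WT. Psmb5 measured 10.88, 10.83 and 10.78 in G609G, against 10.65, 10.62 and 10.62 in WT. None overlapped, with log2 folds of 0.39, 0.29 and 0.20. As deposited these folds were -0.077, -0.17 and -0.26, so their direction flips with the scaling.

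In LCS the proteasome genes showed no common shift. Of the 42 members, 8 were called higher and 10 lower against WT by limma, beside 22.3% and 17.7% of all genes tested, and the median log2 fold was -0.02, against 0.02 for all genes. As deposited 7 were called higher and 4 lower, beside 22.5% and 13% of all genes. Psmb5 had the highest log2 fold of the 42 members in LCS. It measured 11.13, 11.21 and 11.11 in LCS, against 10.65, 10.62 and 10.62 in WT, a log2 fold of 0.52 ± 0.03 with an adjusted p of 2.29e-07 by limma. The groups did not overlap, and the fold was 0.56 as deposited.

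The other catalytic subunits were split in LCS. Psmb6 measured 9.58, 9.43 and 9.31 in LCS, against 9.18, 9.21 and 9.20 in WT, and was called higher at 0.25, a call that ended with the median of the probe sets (adjusted p = 0.0811 by limma). Psmb10 measured 8.42, 8.37 and 8.36 in LCS, against 8.15, 8.05 and 8.18 in WT, and was called higher at 0.26. Psmb7 was called lower at -0.13, which was not called as deposited. Psmb8 at 0.14 and Psmb9 at -0.12 were not called, with adjusted p of 0.172 and 0.397 by limma.

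Outside the catalytic sites, Psmg1 had the lowest log2 fold in LCS. It measured 8.01, 8.06 and 7.97 in LCS, against 8.66, 8.50 and 8.59 in WT, a log2 fold of -0.57 ± 0.07. Psmd10 was called lower at -0.41, Psma5 at -0.37, Psmf1, an inhibitor of the core, at -0.27 and Psmd5 at -0.19. None of the 6 ATPases was called at an adjusted p under 0.05 by limma, 1 had an unadjusted p under 0.05, and their log2 folds ran from -0.02 to 0.23. Of the non-ATPase subunits Psmd12 at 0.23, Psmd6 at 0.21, Psmd8 at 0.14 and Psmd2 at 0.11 were called higher.

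The activators open the core in place of the cap. Psme1, a subunit of the interferon-induced PA28, measured 9.34, 9.27 and 9.28 in G609G and 9.68, 9.63 and 9.75 in LCS, against 9.41, 9.40 and 9.40 in WT. It was called higher in LCS at 0.28, and in G609G it was called lower at -0.10. That call ended with the replicate number as a block on the G609G and WT arrays alone (adjusted p = 0.0646 by limma). The fold in G609G turned to 0.21 when the median of the probe sets replaced median polish. Psme4 (PA200) was called higher in G609G at 0.23 and lower in LCS at -0.17, which was not called as deposited. Psme3, a nuclear activator, was not called in G609G at 0.01 or in LCS at 0.08. Psme2, the partner of Psme1, depended on its probe sets. Its own 2 probe sets gave 0.24 in G609G, while joining 13 probe sets shared with a Psme2 pseudogene gave -0.25 (adjusted p = 0.000956 by limma), so its level is uncertain.

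The G609G and LCS arrays were also compared directly, which tests whether the genotypes differ from each other. Of the members, 29 were called higher and 9 lower in G609G against LCS by limma, beside 36.9% and 36.9% of all genes. As deposited 3 were called higher and 26 lower, beside 9.38% and 70.5%. Psmb10 differed by -0.94, Psmb9 by -0.48, Psmb8 by -0.40, Psme1 by -0.39 and Psmb5 by -0.32. The Psmb5 value was -0.11 with the median of the probe sets (adjusted p = 0.0961 by limma). All 7 alpha ring genes were called higher, with a median of 0.46. The comparisons against WT share the WT arrays and are therefore not independent.

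**Figure D3:**
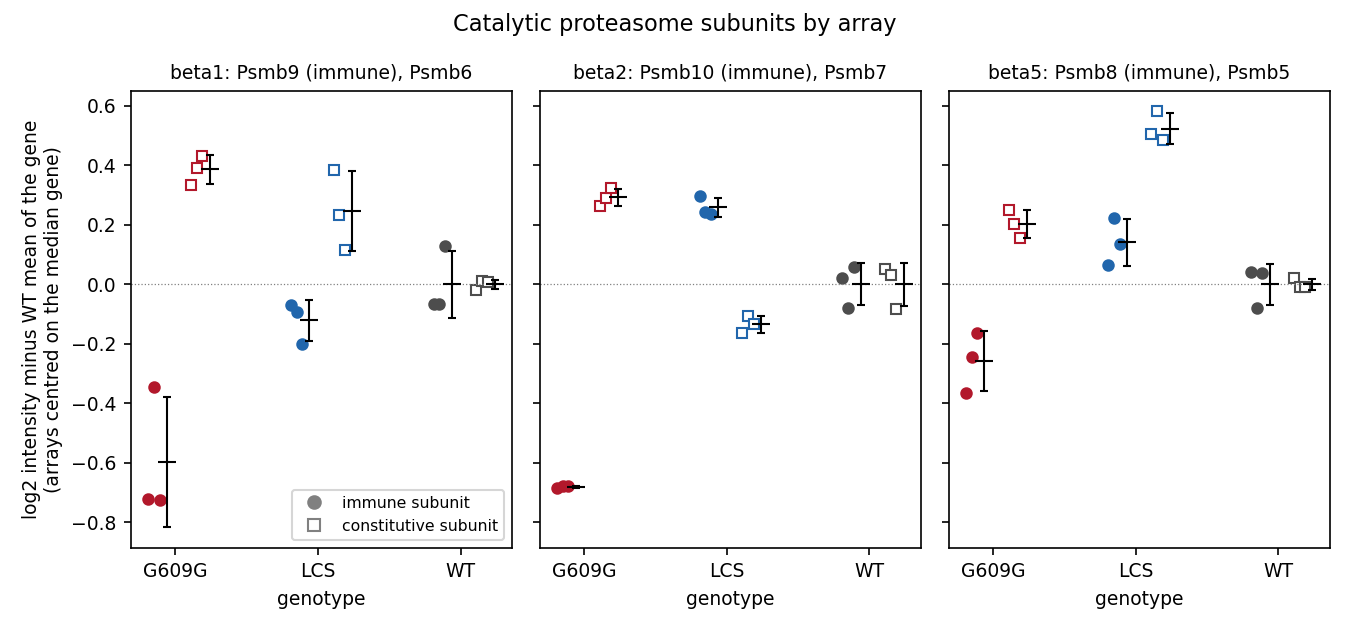
Log2 intensity of the catalytic subunits on each array (points), relative to the WT mean of the gene and centred on the median gene, with the mean and SD of 3 arrays. In G609G the immune subunits (filled circles) lie below 0 and the constitutive subunits (open squares) above it. In LCS Psmb10 and Psmb5 lie above WT.

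The balance between immune and constitutive subunits was measured within each array, where an offset equal for all genes cancels. An offset that varies with intensity does not cancel, and the immune subunits were dimmer than their constitutive partners. Psmb9 minus Psmb6 was -2.73, -2.41 and -2.83 in G609G, against -1.72, -1.75 and -1.55 in WT. Psmb10 minus Psmb7 was -2.22, -2.24 and -2.27 in G609G, against -1.30, -1.38 and -1.13 in WT. Psmb8 minus Psmb5 was -4.08, -3.91 and -3.78 in G609G, against -3.44, -3.53 and -3.42 in WT. In each pair every G609G array lay below every WT array, and the mean differences were -0.98, -0.97 and -0.46. Under quantile normalization the G609G minus WT folds were -0.45 for Psmb9 and 0.34 for Psmb6, and -0.57 for Psmb10 and 0.23 for Psmb7. Those of Psmb8 and Psmb5 were -0.11 and 0.17. All kept their direction and were smaller in size than after centring, so the size of the pair differences depends on the normalization.

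In LCS the pairs went in different directions. Psmb9 minus Psmb6 averaged -2.04 ± 0.08 in LCS, against -1.67 ± 0.11 in WT, a difference of -0.37. Psmb8 minus Psmb5 averaged -3.85 ± 0.05 in LCS, against -3.46 ± 0.06 in WT, a difference of -0.38. Psmb10 minus Psmb7 averaged -0.88 ± 0.06 in LCS, against -1.27 ± 0.13 in WT (SD, n = 3 arrays each), a difference of 0.39. For all 6 comparisons the two-sided exact permutation p was 0.1, the smallest that 3 arrays against 3 allow, and 0.1 after adjustment over the 6.

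**Figure D4:**
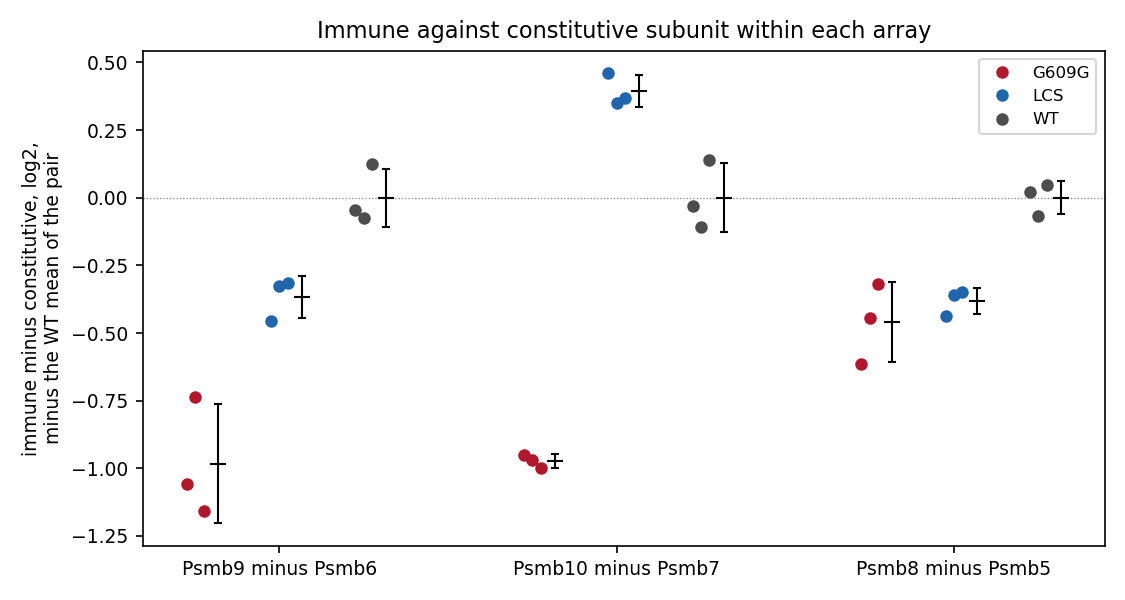
Immune minus constitutive subunit on each array (points; log2), relative to the WT mean of the pair, with the mean and SD of 3 arrays per genotype. G609G lies below WT in all 3 pairs, and LCS lies below WT for the beta1 and beta5 pairs and above WT for the beta2 pair.

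The regions before the gene starts are shown for Psmb5, Psmb6, Psmb8, Psmb9 and Psmb10, from a promoter table. Psmb11 was also in the table and is not shown. No window was available there for Psmb7, so this constitutive subunit was not searched. Interferon factors and NRF factors are known to act on the immune and the constitutive genes. Each run holds the 250 bases before the RefSeq start on build GRCm38.p6, 5′ to 3′ on the gene's strand. Capitals mark TTCNNNGAA (GAS, a STAT site), the ISRE core (GAAA, any 2 bases and GAAA) or TGACNNNGC (antioxidant response element core), searched on both strands. The windows are Psmb9 at chr17:34187331-34187580 on the minus strand, Psmb10 at chr8:105938393-105938642 on the minus strand, Psmb8 at chr17:34197945-34198194 on the plus strand, Psmb5 at chr14:54617996-54618245 on the minus strand and Psmb6 at chr11:70525107-70525356 on the plus strand.
Psmb9: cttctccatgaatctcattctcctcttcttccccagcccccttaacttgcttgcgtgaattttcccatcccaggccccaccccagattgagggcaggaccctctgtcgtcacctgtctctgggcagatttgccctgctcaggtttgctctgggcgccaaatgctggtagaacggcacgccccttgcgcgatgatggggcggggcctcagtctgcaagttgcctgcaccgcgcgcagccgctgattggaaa
Psmb10: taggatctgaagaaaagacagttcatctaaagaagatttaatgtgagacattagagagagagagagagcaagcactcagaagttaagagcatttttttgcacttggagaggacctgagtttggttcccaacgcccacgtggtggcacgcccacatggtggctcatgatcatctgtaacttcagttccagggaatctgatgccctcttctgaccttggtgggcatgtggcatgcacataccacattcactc
Psmb8: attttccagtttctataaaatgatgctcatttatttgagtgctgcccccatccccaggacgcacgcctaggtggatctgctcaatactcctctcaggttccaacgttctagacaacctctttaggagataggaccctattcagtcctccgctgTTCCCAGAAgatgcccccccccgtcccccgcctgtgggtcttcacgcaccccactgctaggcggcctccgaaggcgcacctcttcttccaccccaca
Psmb5: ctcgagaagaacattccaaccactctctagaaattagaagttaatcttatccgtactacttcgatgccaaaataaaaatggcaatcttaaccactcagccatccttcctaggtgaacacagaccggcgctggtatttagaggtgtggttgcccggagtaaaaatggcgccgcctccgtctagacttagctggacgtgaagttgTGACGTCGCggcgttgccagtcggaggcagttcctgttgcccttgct
Psmb6: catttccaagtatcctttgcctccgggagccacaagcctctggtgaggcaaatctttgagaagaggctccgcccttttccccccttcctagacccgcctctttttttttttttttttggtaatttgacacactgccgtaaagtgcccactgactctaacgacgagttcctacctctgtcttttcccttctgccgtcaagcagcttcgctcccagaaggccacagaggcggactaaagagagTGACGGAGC
Psmb8 held a GAS match, Psmb5 and Psmb6 each held an antioxidant response element match, and the windows of Psmb9 and Psmb10 held none of these letters. Of all 32851 promoters of this length, 7.02% held the GAS letters, 2.98% the ISRE core and 10.2% the antioxidant response element core. The table held 42 promoters for genes with the prefixes, and 2, 3 and 5 of these promoters held the letters. They are not the 42 tested members: Psmc3ip is among them, and Psma6, Psmc2 and Psme2 have repeated entries. A match is a description of the letters and no evidence of binding.

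Genes around the proteasome gave the setting of these values. Over all genes tested, 34% were called higher and 36.7% lower in G609G, and 8.26% and 71.3% as deposited. The shares in LCS were 22.3% and 17.7%. Of 11 proteasome genes named outside the prefixes, 7 were called higher and 2 lower in G609G, and as deposited 2 were called higher and 7 lower. Zfand5, an activator of the 26S proteasome, had a log2 fold of 1.16, Zfand2a 0.59 and Adrm1, a ubiquitin receptor, 0.56, while Pomp, the maturation factor of the core, had -0.16. In LCS Zfand2a was called higher at 0.18 and the other 10 were not called. Of 7 muscle atrophy ligases, 6 were called higher in G609G, with Fbxo32 (atrogin) at 4.06, and in LCS 0 were called higher and 2 lower by limma.

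Regulators of proteasome genes were called higher for 7 of 10 and lower for 1 in G609G, against 2 higher and 5 lower as deposited. Nfe2l1, which encodes the factor that induces subunit genes when the proteasome is impaired, was not called in G609G at 0.049 (lower as deposited, at -0.41) and was called higher in LCS at 0.31. Nfe2l2, which encodes NRF2, was called lower in G609G at -0.21 and was not called in LCS at 0.04. Of 9 NRF2 targets, 3 were called higher and 3 lower in G609G (2 and 6 as deposited), beside 34% and 36.7% of all genes tested. In LCS 1 was called higher and 4 lower, beside 22.3% and 17.7%, with Nqo1 at -2.35 and Slc7a11 at -2.05.

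Interferon-stimulated genes were called lower for 9 of 16 and higher for 2 in G609G, with Cxcl9 at -3.80 and Gbp2 at -0.91. Over all genes tested 36.7% were called lower and 34% higher. Irf1, an activator of the immune subunit genes, was not called in G609G at -0.20 (adjusted p = 0.055 by limma). In LCS 3 of the 16 were called higher and 2 lower, beside 22.3% and 17.7% of all genes. As deposited 13 of the 16 were called lower in G609G and 0 higher, beside 71.3% and 8.26% of all genes. Of 11 class I antigen processing genes, 5 were called lower and 2 higher in G609G, while as deposited all 11 were called lower. Tap1, which lies beside Psmb9, was not called in G609G (adjusted p = 0.97 by limma), and B2m was called higher at 0.25; as deposited they were called lower at -0.47 and -0.21. The summed level of macrophage markers was 11.69 to 11.84 in G609G and 12.83 to 12.86 in LCS, against 12.52 to 12.57 in WT, and its part in the values of the immune subunits was not tested.

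Single probe sets were compared with the rest of their gene, which looks for changes in part of a transcript. By limma's diffSplice 46 of 486 member probe sets were called in G609G against WT, 9.47%, beside 16.4% of all 158136 probe sets. In LCS against WT 7 were called, 1.44% beside 1.97%, and in G609G against LCS 69 were called, 14.2% beside 19.1%. On simulated data diffSplice also called unchanged probe sets that vary more than the others of their gene, because it pools 1 variance per gene. With a variance for each probe set (the splicing index), 21 were called in G609G, 4.32% beside 12.1%, 2 in LCS, 0.412% beside 0.882%, and 42 in G609G against LCS, 8.64% beside 15%. Both tests called 15 in G609G and 2 in LCS against WT. Only such probe sets are described, apart from 4547919 and 5558936 of Psmb9.

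In LCS these were a probe set of Psmb5 and a probe set of Psma6. Psmb5 probe set 5037994 measured 7.29 ± 0.08 in LCS and 8.23 ± 0.11 in G609G, against 8.23 ± 0.19 in WT (SD, n = 3 arrays each), while the other 7 probe sets of Psmb5 were higher in LCS than in WT. The change of the probe set minus its gene was -1.46 in LCS minus WT (adjusted p = 0.00541 by limma on the splicing index). Psma6 probe set 4315337 measured 9.77 ± 0.04 in LCS and 10.01 ± 0.12 in G609G, against 8.94 ± 0.14 in WT. The change of the probe set minus its gene was 0.97 in LCS minus WT (adjusted p = 0.0082 by limma on the splicing index), and the Psma6 fold in LCS was 0.25 with the median of the probe sets, against -0.14 with median polish.

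**Figure D5:**
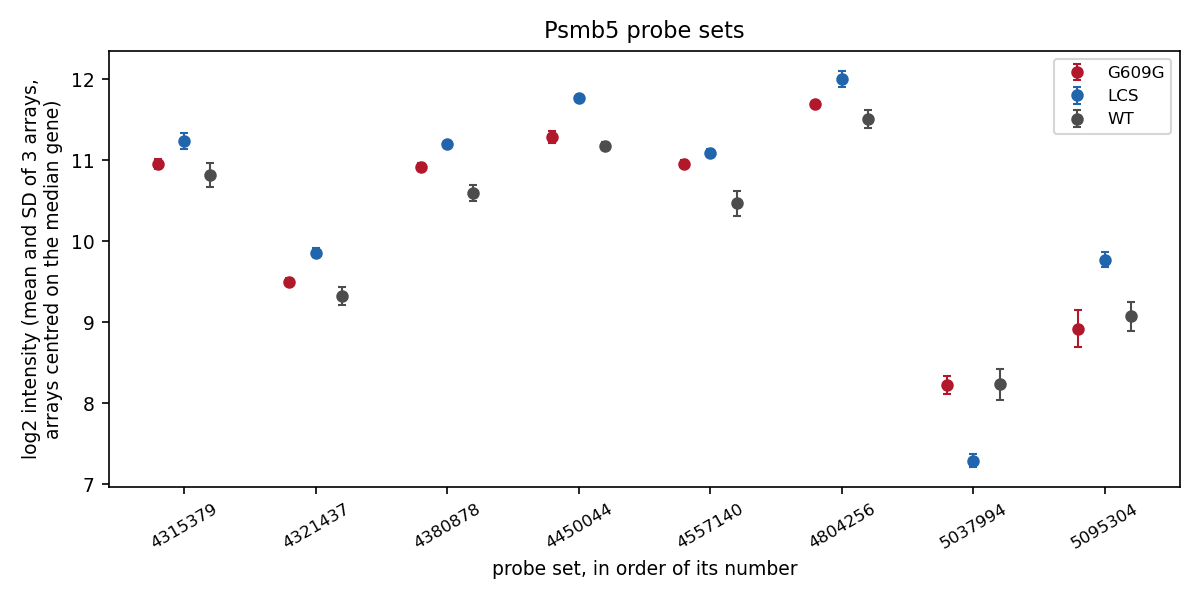
Log2 intensity of the 8 probe sets of Psmb5 (mean and SD of 3 arrays per genotype, centred on the median gene), in order of probe set number. LCS lies above WT for 7 probe sets and below WT for 5037994.

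In G609G the probe sets called by both tests with the lowest diffSplice p lay in Psmd12, Psmd13 and Psmd3. Psmd12 probe set 4990961 measured 5.28 ± 0.48 in G609G, against 6.19 ± 0.33 in WT. Psmd13 probe set 5350816 measured 5.19 ± 0.54 in G609G, against 7.47 ± 0.06 in WT. Both lay close to the intensity filter of 5.01 in G609G. Psmd3 probe set 5615798 went the other way, with 8.47 ± 0.28 in G609G, against 7.15 ± 0.20 in WT.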

How the data were processed

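The authors deposited log2 intensities of 229581 probe sets for each of 9 exon arrays. Nothing used here states their normalization. Build mm9 is named in the submitters' processing notes. The design text speaks of 10 samples, and 9 were analysed here. Arrays were grouped by their titles. Array values correlated with r from 0.972 to 0.990 within groups, and at most 1.89% of values were identical between arrays.

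Probe sets with 1 symbol in the platform annotation (208397) were reduced to gene values by median polish, with up to 10 rounds, and 3965 with several symbols were left out. Genes that had 3 or more probe sets and whose mean passed the 25th percentile were centred by array and tested with limma 3.58.1 (lmFit, eBayes with a trend, all 9 arrays) in R 4.3.3 (data.table package, version 1.17.8), adjusted by Benjamini-Hochberg over 11342 genes. Adjusted p-values come from limma, apart from that of the exact permutation tests of the pairs. Probe sets were tested with diffSplice, as planned, and with the splicing index (probe set minus gene value). The steps were tested on simulated data. Gene steps gave folds close to the known ones and missed some smaller changes. Where probe sets of a gene differed in spread, most diffSplice calls were false and few splicing index calls were. The splicing index missed more true changes. Apart from 4547919 and 5558936 of Psmb9, probe sets are therefore described only where both tests called them. Figures used Python 3.11.15 and matplotlib 3.10.9. Promoter sequences are RefSeq's, GRCm38.p6, used apart from the array data.

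The members, lists and rules were chosen with earlier results of these data known. Named are the catalytic subunits and activators, and up to 5 called members per direction and comparison with the lowest p. Up to 3 probe sets per comparison, further probe sets of Psmb9 and Psmd9, and up to 3 genes per further list plus a fixed set are also named. Other members are named within their role. Same-numbered G609G and WT arrays deviated together (r = 0.168, 0.145 and 0.337). The labels do not say what the numbers share, so the main limma and permutation tests used no pairing. The methods' t-test at a fold of 1.5, other scalings, summaries and filters, a replicate block and leaving out each array were alternatives.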

Additional observations from a re-analysis of the deposited data

How the results depend on the processing

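The number of arrays limits the precision, and dim probe sets limit the folds. As deposited, 3 members were called higher and 25 lower in G609G against WT, 4 lower in LCS against WT, and 3 higher and 26 lower in G609G against LCS. With array medians set equal, 5 were lower in G609G and 6 in LCS, against WT. With the median of probe sets 5 were higher in LCS. The methods' t-test at a fold of 1.5 used the deposited values. It called 0 members higher in G609G, 0 higher and 0 lower in LCS, against WT, and 1 higher in G609G against LCS. Limma, on centred values and without a fold threshold, called 28, 8, 10 and 29, so scale, test and threshold all differ. The numbers that this t-test called lower in G609G are not given here. As deposited Psmb10, Psmb9 and Psmd10 had G609G minus WT log2 folds of -1.14, -1.06 and -0.94. The splicing index called 21, 2 and 42 probe sets in G609G against WT, LCS against WT and G609G against LCS, where diffSplice called 46, 7 and 69.

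As deposited, also the values of the methods' t-test, the G609G minus WT fold turned to -0.26 for Psmb5, -0.077 for Psmb6, -0.17 for Psmb7, -0.24 for Psme4 and -0.013 for Psma1. As deposited that of Psme3 turned to -0.45. G609G minus LCS turned to -0.36 for Psmb6, -0.07 for Psmb7, -0.10 for Psme4, -0.16 for Psmd12, -0.26 for Psmg1, -0.27 for Psmf1 and -0.04 for Psma1. With array medians set equal Psme1 turned to 0.050 and Psmf1 to 0.11 in G609G minus WT. With the median of probe sets Psme1 turned to 0.21 in G609G minus WT and Psma6 to 0.25 in LCS minus WT. The deposited scale differs by the array offsets; the cause of the other turns was not tested.

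Leaving out each array in turn gave 27 to 28 members higher and 7 to 12 lower in G609G against WT, 5 to 9 and 5 to 11 in LCS against WT, and 27 to 30 and 8 to 10 in G609G against LCS. In LCS against WT, 5 were higher without WT replicate 2, and 6, 6 and 5 lower without WT replicate 1, LCS replicate 1 and LCS replicate 3. The diffSplice counts ran from 31 to 70, 6 to 11 and 39 to 93. Without G609G replicate 3 they were 70 and 11 in G609G and LCS against WT, and without LCS replicates 1 and 3 they were 42 and 39 in G609G against LCS. The 6 pair differences kept their direction in each case. Psmb9 minus Psmb6 ran from -1.11 to -0.90 in G609G and -0.41 to -0.31 in LCS, Psmb10 minus Psmb7 from -1.03 to -0.90 and 0.34 to 0.46, and Psmb8 minus Psmb5 from -0.53 to -0.38 and -0.42 to -0.35.

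With the replicate block over 9 arrays 28 members were higher and 9 lower in G609G against WT. With it on the G609G and WT arrays alone, added after seeing the data, 27 were higher and 7 lower, and Psmc3, Psmd13 and Psme1 were no longer called. The block over 9 arrays ended the call of Psmb6 in G609G minus LCS at 0.14 (adjusted p = 0.0603). Also added after seeing the data were testing genes with at least 1 probe set and joining the shared probe sets of Psma5 and Psme2.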
